A study of Oryza sativa with 14 samples.

Results

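CCCH zinc finger genes of rice were followed across 4 genetically modified lines and the 3 unmodified cultivars they came from. A gene was counted as a member when its symbol or a synonym was C3H or OsC3H followed by a number. The reference gene table held 53 such genes, and 50 of them, with 70 probe sets, were represented on the array among 17905 genes with a probe set. OsC3H38, a copy of the splicing factor subunit U2AF35, OsC3H56 and OsC3H67 were not analysed here. Each member is described by its brightest probe set, taken over the mean of the 14 arrays, and 14 members had several probe sets to choose from. Zinc fingers of the CCCH type hold a zinc ion with 3 cysteines and 1 histidine, and many of them bind RNA. Plant members act in mRNA decay and splicing and, in the nucleus, as transcription regulators, and rice members have been tied to leaf senescence, flowering, leaf angle, drought and disease resistance.

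Transcript levels in Oryza sativa ssp. japonica were read on the GeneChip Rice Genome Array (Affymetrix). Each group had 2 RNA pools, each of 6 whole seedlings of 12 days. Seedlings of all groups had 2 days of dark and 10 days of light, with a 12 h photoperiod at 28 °C. The stable transgenic line was the T3 generation of cv. Bengal carrying a single-chain antibody gene (ScFvT84.66) directed at carcinoembryonic antigen, and its control was unmodified Bengal. The stable mutant was a semidwarf, gamma-irradiated line of cv. Estrela A that had been selfed for over 10 generations, and its control was unmodified Estrela A. The unstable transgenic line was the T1 generation of an Agrobacterium-transformed Nipponbare with 1 copy of BCBF1 behind the Arabidopsis RD29A promoter and 1 copy of the hygromycin resistance gene hptII. The unstable mutant was the M1 generation of Nipponbare seed given 100 Gy of gamma rays, and unmodified Nipponbare from the same panicle was the control of both unstable lines. Both transgenic lines, and no other group, germinated in 30 mg/L hygromycin B, so effects of the antibiotic and of the transgene cannot be told apart. Each modification was studied in 1 line, and the unstable mutant was picked because it looked most like its control.

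All values are log2 expression, and a difference of 1 is a 2-fold difference. A gene was called when limma's moderated test gave an adjusted p under 0.05 over all 57194 probe sets tested. The 2 arrays of a group correlated at r = 0.993 to 0.997 over all probe sets, and array medians lay between 5.83 and 5.89. Nothing in the labels says that the pools were grown separately, so the p-values measure the spread between pools only. Whole seedlings hold many cell types, and fewer cells of a type and less RNA per cell cannot be told apart. Of 21 root markers on the array, 9 fell and 0 rose in the unstable mutant against Nipponbare. The other 12 were not called, among them OsWOX11 (7.17 in both groups) and OsPht1;1 (10.60 against 10.53). The summed linear level of the root markers was 14800 to 22900 in unstable mutant pools, 35100 to 53400 in unstable transgenic pools and 37600 to 40700 in Nipponbare control pools. Bright genes weigh most in this sum, and NAS1 and NAS2, not called, had SDs of 3.61 and 3.11 in the unstable mutant. The genes named next had the largest falls of the list. The iron transporter gene IRT1, the nitrate transporter genes NRT2.2 and NRT2.3 and the phosphate transporter gene OsPht1;2 averaged 5.84, 5.01, 5.44 and 5.88 in the unstable mutant, at or below the median of 5.88 over all probe sets. The same genes averaged 5.57, 4.87, 5.41 and 6.49 in the Bengal control. In the Estrela A control they averaged 5.53, 5.09, 5.13 and 7.04. Low levels of IRT1, NRT2.2 and NRT2.3 were thus not particular to the unstable mutant. Of 15 shoot markers 4 rose and 3 fell in the unstable mutant, and of 14 grain markers 4 rose and 0 fell.

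In the 2 stable lines no CCCH gene passed the test. None of the 50 was called in the stable transgenic line against Bengal, where 0.164% of all probe sets and 0.212% of all genes were called. There 4 members had an unadjusted p under 0.05, beside 1786 of all 17905 genes. None was called in the stable mutant against Estrela A, where the shares were 0.131% and 0.19%. Again 4 members had an unadjusted p under 0.05, beside 1573 of all 17905 genes. With shares of called genes this low, 0 calls among 50 genes says little about the family. In the stable transgenic line the median member differed by -0.04 from Bengal, and in the stable mutant by 0.01 from Estrela A.

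The members that moved most in the stable lines did not pass the test. OsC3H49 had 8.71 and 8.92 in the stable transgenic line, against 9.20 and 9.12 in Bengal, a difference of -0.35 (SE 0.10, limma adjusted p = 0.409). OsC3H60, which encodes U2AF35A, differed by -0.32 there (adjusted p = 0.61), and OsC3H3, whose probe set lies below the median of all probe sets, by 0.32 (adjusted p = 0.454). OsC3H54 had 9.56 and 9.70 in the stable mutant, against 9.16 and 8.78 in Estrela A, a difference of 0.66 (SE 0.17, adjusted p = 0.342). Line and control did not overlap on the arrays for either OsC3H49 or OsC3H54, but with 2 arrays per group that alone marks little. Uncalled OsC3H2 and OsC3H8 did not overlap between the stable transgenic line and Bengal either. In the stable mutant OsC3H4 differed by -0.51 (adjusted p = 0.475), U2AF35A by 0.43 (adjusted p = 0.49) and OsC3H3 by -0.38 (adjusted p = 0.365).

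In the unstable transgenic line 4 members rose and 1 fell. The 5 calls are 10% of the family, beside 7.74% of all probe sets and 13.1% of all genes, so the share is near the background. The share of genes that rose was 9.21% over all genes and 8% in the family, and 3.92% over all genes and 2% in the family fell. The median member differed by 0.03, as did the median gene.

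OsC3H4 was the member that rose furthest in the unstable transgenic line. It had 8.07 and 7.76 there, against 6.81 and 6.94 in Nipponbare. The groups did not overlap, and the highest array of the other 6 groups was 6.94. The difference of 1.04 (SE 0.15) is 2.06-fold, with an adjusted p of 0.00229. OsC3H5, which lies 4 genes away from OsC3H4 in the reference annotation, had 8.72 and 8.56 in the unstable transgenic line and 7.84 and 7.83 in Nipponbare. Both transgenic arrays lay above both controls, and the difference was 0.81 (adjusted p = 0.00125). The second probe set of OsC3H5 gave 0.91 (adjusted p = 0.00142). OsC3H6, 5 genes away from OsC3H5, was not called, with 10.22 and 10.25 in the unstable transgenic line and 10.18 and 10.24 in Nipponbare.

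OsC3H54 was the 1 member that fell in the unstable transgenic line. It had 8.49 and 9.01 there, against 9.99 and 10.03 in Nipponbare. Both transgenic arrays lay below both controls, and the level was 2.40-fold lower than in the control (difference -1.26, SE 0.17, adjusted p = 0.00134). OsC3H22 had 8.16 and 8.18 in the unstable transgenic line and 7.70 and 7.75 in Nipponbare (difference 0.45, adjusted p = 0.0146). OsC3H20 encodes Ehd4, a nuclear protein that promotes flowering upstream of the florigen genes, and it had 9.89 and 9.91 in the unstable transgenic line and 9.49 and 9.50 in Nipponbare. Its difference of 0.41 (1.32-fold, adjusted p = 0.0378) was the smallest of the 5.

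The calls in the unstable transgenic line rest on the spread estimated from all 14 arrays: none of the 5 passed in a fit of the 4 transgenic and Nipponbare arrays alone (adjusted p = 0.0871 for OsC3H4), where 0.101% of all genes were called. Leaving out Nipponbare replicate 1 left 3 calls, with 5.4% of all genes called. OsC3H20 was not called when either array of either group was left out, with an adjusted p of 0.0754 without Nipponbare replicate 2, 0.138 without Nipponbare replicate 1, 0.115 without unstable transgenic replicate 2 and 0.144 without unstable transgenic replicate 1. OsC3H22 lost its call without Nipponbare replicate 1 (0.0836), unstable transgenic replicate 2 (0.0525) or unstable transgenic replicate 1 (0.079). OsC3H33 had 12.08 and 11.43 in the unstable transgenic line and 11.37 and 11.10 in Nipponbare, and its difference of 0.52 did not pass (adjusted p = 0.141).

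In the unstable mutant 19 members rose and 2 fell. The 21 calls are 42% of the family, beside 22.9% of all probe sets and 38% of all genes, so the total lies near the share of genes. By direction, 38% of the family and 19.1% of all genes rose, while 4% of the family and 18.9% of all genes fell. The median member differed by 0.18 and the median gene by 0.01. Of the 19 that rose, 2 differed by more than 2-fold.

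OsC3H60 rose furthest in the unstable mutant. Its product, U2AF35A, is the small subunit of the splicing factor that recognises the 3′ end of an intron. It had 10.88 and 10.97 in the unstable mutant, against 9.58 and 9.73 in Nipponbare. The highest array of the other 6 groups was 9.83, in the stable mutant, so both unstable mutant arrays stood apart. The difference of 1.27 (SE 0.13) is 2.41-fold, with an adjusted p of 3.81e-05.

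**Figure D1:**
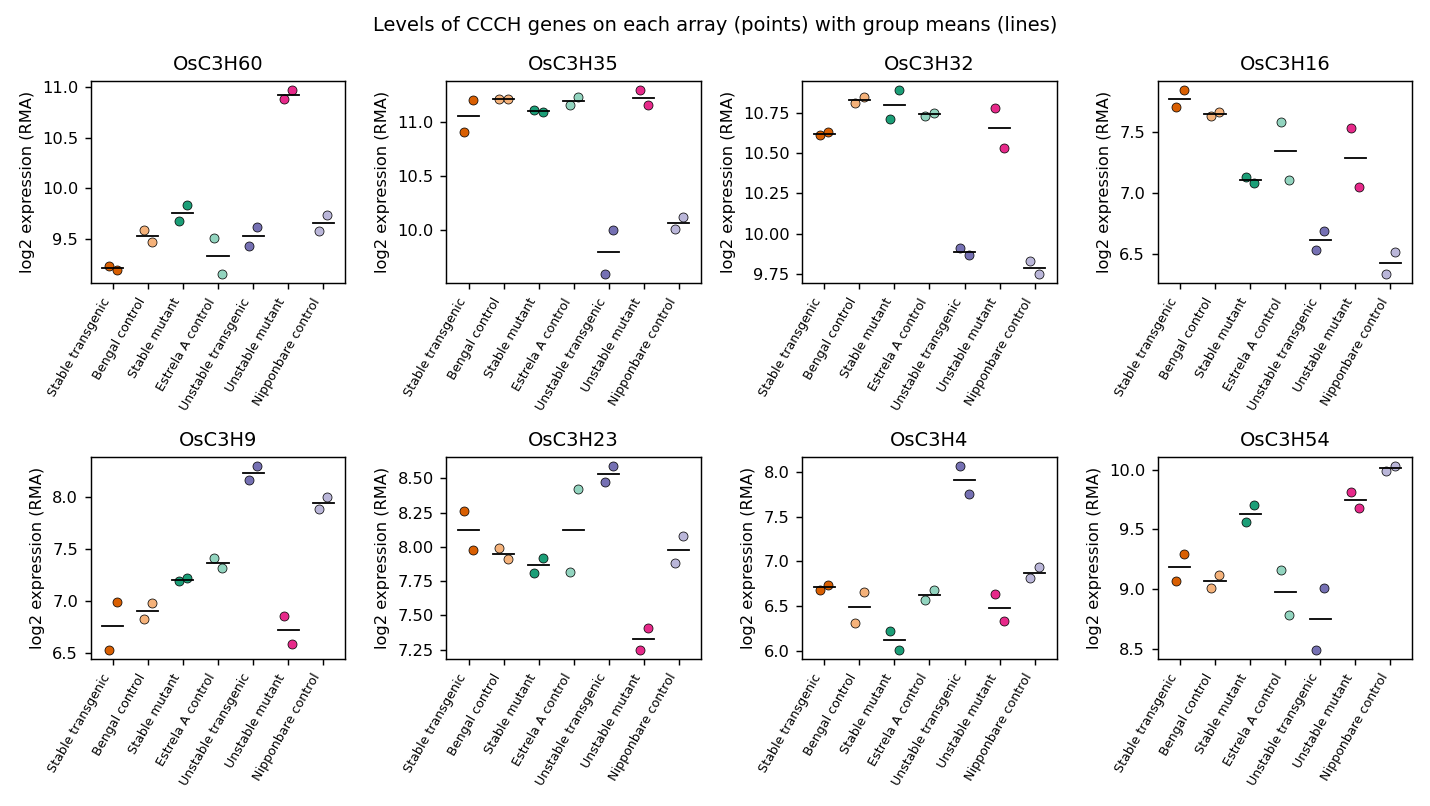
Levels of 8 CCCH genes on each of the 14 arrays (points, log2 expression on the vertical axis, a separate scale per gene) with the mean of each group (lines). OsC3H60 stands at 10.88 and 10.97 in the unstable mutant and at 9.83 or below elsewhere, and OsC3H4 at 8.07 and 7.76 in the unstable transgenic line and at 6.94 or below elsewhere.

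A set of members without a second name in the files rose with it. OsC3H35 had 11.29 and 11.15 in the unstable mutant, against 10.01 and 10.12 in Nipponbare, a 2.23-fold difference (1.16, SE 0.14, adjusted p = 0.000123). The Bengal control had 11.21 on both arrays and the Estrela A control 11.15 and 11.23, so 1 unstable mutant array lay at the low end of these 4 and the other above them. OsC3H32 had 10.78 and 10.53 in the unstable mutant and 9.83 and 9.75 in Nipponbare (difference 0.87, adjusted p = 0.000128), and here the Bengal control had 10.81 and 10.85 and the Estrela A control 10.73 and 10.75. The Nipponbare arrays were thus the low ones among the controls for both genes. Nipponbare had the lowest of the 3 control means for 16 of the 19 members that rose, and the mean of the unstable mutant lay above both other cultivars for 5 of the 19, between them for 5 and below both for 9. The call and the rank of Nipponbare use the same 2 arrays, so these counts are a description and no separate result.

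OsC3H16 had 7.53 and 7.05 in the unstable mutant, against 6.34 and 6.52 in Nipponbare (difference 0.86, SE 0.17, adjusted p = 0.00335), and the mutant arrays lay further apart than the controls. OsC3H49 had 9.02 and 8.99 in the unstable mutant and 8.20 and 8.34 in Nipponbare (difference 0.74, adjusted p = 0.000307). OsC3H14 had 10.09 and 9.83 in the unstable mutant and 9.31 and 9.39 in Nipponbare (difference 0.61, adjusted p = 0.000917). In each of the 3 genes both mutant arrays lay above both controls.

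Among the members that rose in the unstable mutant, 3 are given here for a described role in leaf form, senescence or defence. They were taken from those that rose, so they mark no theme. OsC3H46 is LIC, which sets leaf and tiller angle and acts in brassinosteroid signalling. It had 8.31 and 7.98 in the unstable mutant, against 7.63 and 7.39 in Nipponbare (difference 0.64, SE 0.13, adjusted p = 0.00446). OsC3H12, which takes part in resistance to bacterial blight, had 10.22 and 10.28 in the unstable mutant and 9.60 and 9.72 in Nipponbare (difference 0.59, adjusted p = 0.000791). OsC3H2 is OsDOS, a nuclear protein that delays leaf senescence, and it had 12.43 and 12.13 in the unstable mutant and 11.77 and 11.91 in Nipponbare (difference 0.44, adjusted p = 0.0244). None of the 3 overlapped between the groups.

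OsC3H9 and OsC3H23 were the 2 members that fell in the unstable mutant. OsC3H9 had 6.86 and 6.59 there, against 7.89 and 8.00 in Nipponbare, and the groups did not overlap. Its level was 2.33-fold lower (difference -1.22, SE 0.15, adjusted p = 0.000123). OsC3H23 had 7.25 and 7.41 in the unstable mutant and 7.88 and 8.08 in Nipponbare (difference -0.65, SE 0.17, adjusted p = 0.0171). Both unstable mutant arrays of OsC3H23 lay below the lowest array of the other 6 groups, 7.81 in the stable mutant.

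Other named members did not pass in the unstable mutant. OsC3H13, listed as bip105, differed by 0.27 (adjusted p = 0.0596), OsC3H41, listed as MKRN after the makorin ubiquitin ligases, by -0.12 (0.377), OsC3H20 by 0.06 (0.77) and OsC3H33 by 0.19 (0.579). OsC3H40 rose, with 10.43 and 10.39 in the unstable mutant and 9.90 and 10.02 in Nipponbare (difference 0.45, adjusted p = 0.0113). The smallest differences among those that rose were 0.32, in OsC3H8 and OsC3H66.

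The number of calls in the unstable mutant leaned on single arrays. The medians of the members on replicates 1 and 2 of the unstable mutant were 9.255 and 9.26. Of the 50 members 35 were higher on replicate 1 of the unstable mutant than on replicate 2, a count not made over all genes. Without that replicate 10 members were called, 9 that rose and 1 that fell, and the median difference was 0.12. The 10 are 20% of the family, and 24.8% of all genes were called in that fit, against 38% with all arrays. Without Nipponbare replicate 1 there were 13 calls, with 27.4% of all genes called, and without Nipponbare replicate 2 there were 14, with 31.2%. LIC lost its call without unstable mutant replicate 1 (adjusted p = 0.0546), and OsC3H23 without unstable mutant replicate 1 (0.117) or Nipponbare replicate 2 (0.0851). In a fit of the mutant and Nipponbare arrays alone 10 members were called, 8 that rose and 2 that fell, and 24.1% of all genes. The root markers fell in the same pools, and the part of that shift in the members' differences was not tested.

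**Figure D2:**
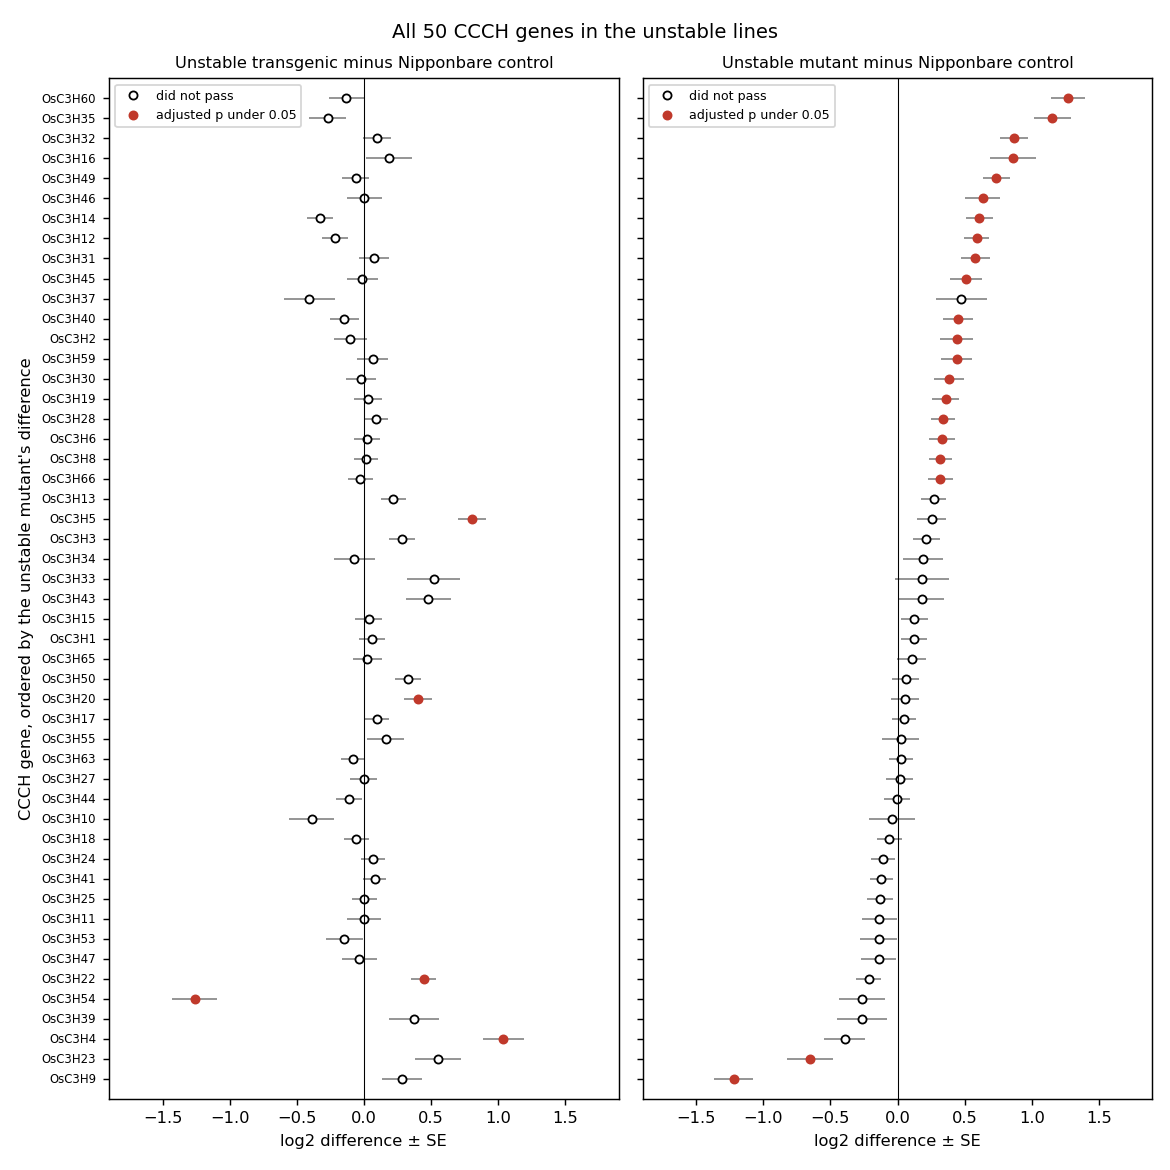
Difference of each of the 50 CCCH genes from the Nipponbare control (horizontal axis, log2 units, with bars of 1 SE), in the unstable transgenic line on the left and the unstable mutant on the right, ordered by the unstable mutant. Filled points passed an adjusted p of 0.05: 5 on the left and 21 on the right. Both panels share the Nipponbare arrays.

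Set directly against the unstable transgenic line, the unstable mutant had 20 members higher and 7 lower. The 27 calls are 54% of the family, beside 29.4% of all probe sets and 50.4% of all genes. By direction, 40% of the family and 22.5% of all genes were higher, while 14% of the family and 27.9% of all genes were lower. The median member differed by 0.10 as deposited and by 0.04 after cyclic loess, and the median gene by -0.04. This comparison shares its mutant arrays with the one above. Root markers moved here too, with 9 of 21 lower and 0 higher, and their part was not tested.

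OsC3H9 was furthest below, with 6.86 and 6.59 in the unstable mutant and 8.16 and 8.30 in the unstable transgenic line (difference -1.51, 2.84-fold lower, adjusted p = 1.66e-05). OsC3H4 had 6.63 and 6.33 in the unstable mutant, against 8.07 and 7.76 in the unstable transgenic line (difference -1.44, 2.70-fold lower, adjusted p = 2.99e-05). OsC3H23 followed with -1.20 (2.30-fold lower, adjusted p = 0.000243). None of the 3 overlapped between the lines. OsC3H22, the direct neighbour of OsC3H23 in the reference annotation, was lower by 0.66 on the log2 scale, at 7.58 and 7.44 in the unstable mutant and 8.16 and 8.18 in the unstable transgenic line (adjusted p = 0.000212). Ehd4 differed by -0.35 (adjusted p = 0.0242) and OsC3H5 by -0.55 (adjusted p = 0.00191).

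Among the members higher in the unstable mutant than in the unstable transgenic line, OsC3H35 differed by 1.43 (2.69-fold, adjusted p = 1.66e-05) and OsC3H60 by 1.40 (2.64-fold, adjusted p = 1.15e-05). OsC3H54 had 9.81 and 9.68 in the unstable mutant, against 8.49 and 9.01 in the unstable transgenic line (difference 1.00, adjusted p = 0.000781). OsC3H37 had 12.64 and 12.19 in the unstable mutant and 11.32 and 11.75 in the unstable transgenic line, with a wide spread in both (difference 0.88, adjusted p = 0.00391). Without unstable mutant replicate 1 its adjusted p was 0.0504. OsC3H14, OsC3H12 and OsC3H49 were higher by 0.94, 0.81 and 0.80. Without unstable mutant replicate 1 the comparison had 18 calls, and 38.5% of all genes were called.

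Whether a line's change differed between the unstable and stable lines was tested as a difference of line effects, each line set against its own control. Between the mutants 11 members passed, 9 with a more positive effect in the unstable mutant and 2 with a more negative one. They are 22% of the family, beside 10.2% of all probe sets and 16.7% of all genes (9.57% more positive and 7.1% more negative), and the count ranged from 4 to 15 with 1 array left out, while 8.7% to 15.8% of all genes were called in those fits. OsC3H35 changed by 1.16 in the unstable mutant and by -0.09 in the stable mutant, a difference of 1.25 (SE 0.20, adjusted p = 0.00219). OsC3H9 changed by -1.22 in the unstable mutant and by -0.16 in the stable mutant, a difference of -1.06 (SE 0.21, adjusted p = 0.00769). OsC3H60 changed by 1.27 in the unstable mutant and by 0.43 in the stable mutant, a difference of 0.85 (SE 0.18, adjusted p = 0.0128), which missed the threshold without stable mutant replicate 1 (0.0548) or Estrela A replicate 1 (0.0546). The cultivars differ between these lines as well, so line and cultivar cannot be told apart here.

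Between the transgenic lines 2 members passed, 4% of the family, beside 1.95% of all probe sets and 3.75% of all genes. OsC3H54 changed by -1.26 in the unstable transgenic line, against 0.12 in the stable one, a difference of -1.38 (SE 0.24, adjusted p = 0.0165). OsC3H5 changed by 0.81 in the unstable transgenic line, against -0.16 in the stable one, a difference of 0.97 (SE 0.15, adjusted p = 0.0103). Both differences depended on the Bengal arrays. Without Bengal replicate 2 neither passed (0.0507 for OsC3H5 and 0.0552 for OsC3H54), and OsC3H54 also missed the threshold without Bengal replicate 1 (0.0659) or stable transgenic replicate 2 (0.0661).

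The unmodified cultivars differed in 27 members by limma's moderated F-test. These are 54% of the family, beside 29.6% of all probe sets and 47.5% of all genes. Nipponbare had the lowest mean of the 3 cultivars for 21 of the 27, the highest for 3 and the middle one for 3. This rank was not counted over all genes, where Nipponbare was also the cultivar furthest from the others, by the shares that follow. Pair by pair, 3 members were higher and 18 lower in Nipponbare than in Bengal, where 23.3% of all probe sets and 39.1% of all genes were called (16.8% of genes higher, 22.3% lower). Against Estrela A 3 were higher and 19 lower in Nipponbare, where the shares were 24.3% and 37.2% (14.8% of genes higher, 22.5% lower). Estrela A had 1 member higher and 4 lower than Bengal, where the shares were 9.5% and 14.5% (8.67% of genes higher, 5.83% lower). The 3 pairs share their arrays. Root markers also differed between these cultivars, with 10 of 21 higher and 0 lower in Nipponbare than in Bengal, and 12 higher and 1 lower than in Estrela A. Their summed linear level was 37600 to 40700 in Nipponbare, 15800 to 16900 in Estrela A and 18000 to 18300 in Bengal. Of 15 shoot markers 12 differed among the cultivars, with 9 higher and 2 lower in Nipponbare than in Bengal and 8 higher and 0 lower in Estrela A than in Bengal. Their summed linear level was 89000 to 89500 in Nipponbare, 82100 to 84100 in Estrela A and 69700 to 71400 in Bengal. Of 14 grain markers 1 was higher and 5 were lower in Nipponbare than in Bengal, with a summed linear level of 3380 to 3510 in Nipponbare, 3630 to 3650 in Estrela A and 4600 to 12800 in Bengal. The part of these marker differences in the members' values was not tested.

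OsC3H40 had the widest range of the family, and its levels are given as a description, since the gene was picked out for this pattern. The unstable transgenic line read 9.82 and 9.81, the unstable mutant 10.43 and 10.39 and the Nipponbare control 9.90 and 10.02. In the other cultivars it read 4.47 and 4.29 in the stable transgenic line, 4.51 and 4.33 in unmodified Bengal, 4.22 and 4.03 in the stable mutant and 3.98 and 4.11 in the Estrela A control. All 6 arrays of Nipponbare material thus stood far above all 8 arrays of the other cultivars, whose values lie below the median of 5.88 over all probe sets. No fold is given against levels that low. The arrays of the stable transgenic line and Bengal overlapped, as did those of the stable mutant and Estrela A.

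**Figure D3:**
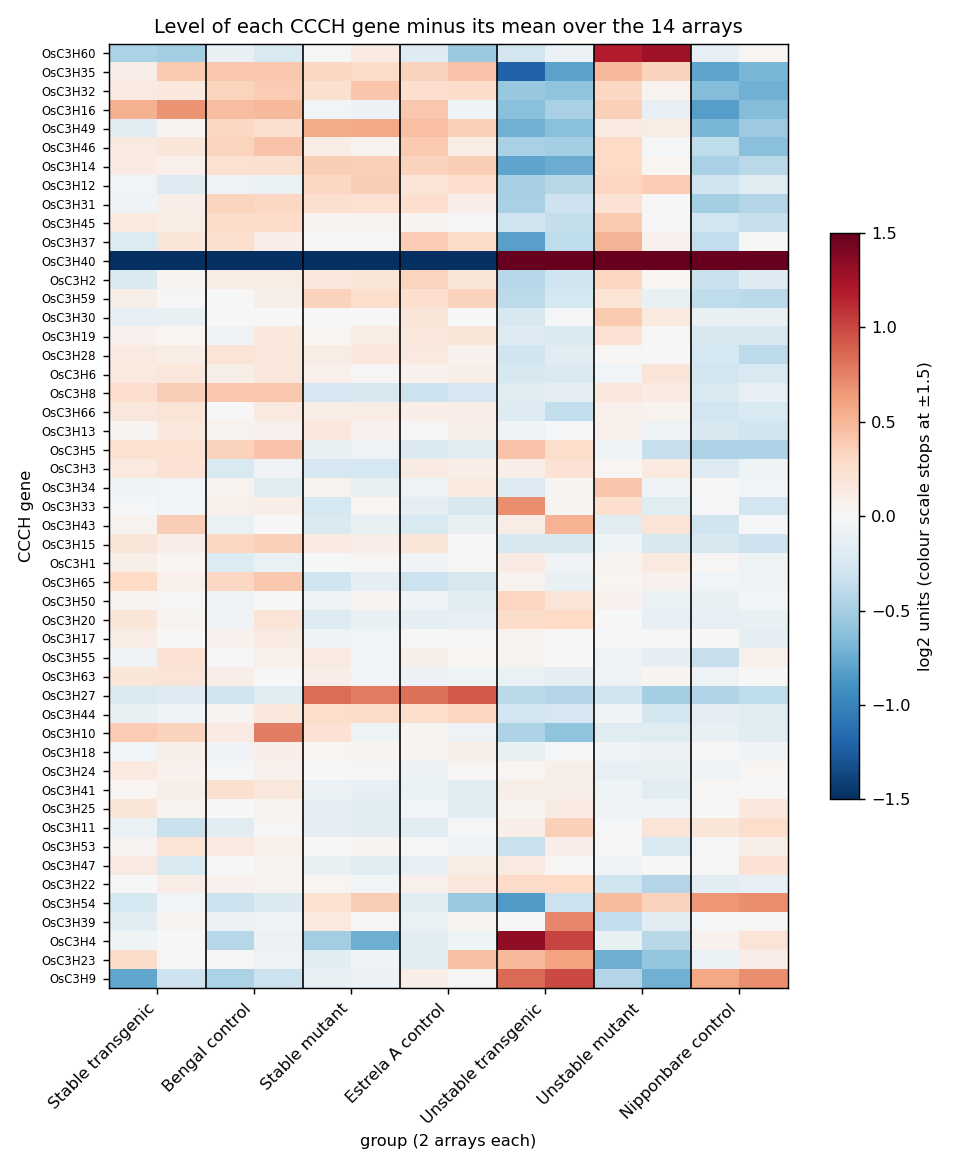
Each of the 50 CCCH genes (rows, ordered by the unstable mutant's difference from Nipponbare) on each of the 14 arrays (columns, 2 per group), as log2 level minus the gene's mean over all arrays. Red is above and blue below that mean, and colours stop at 1.5 either way. OsC3H40 splits the Nipponbare arrays from the rest, and OsC3H27 is high on the 4 Estrela A arrays.

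The other cultivar differences were smaller. OsC3H27 had 9.74 and 9.81 in Nipponbare, 11.02 and 11.11 in the Estrela A control and 9.89 and 10.04 in Bengal. The stable mutant, of the same cultivar, had 11.03 and 10.97, so all 4 Estrela A arrays were high. The F-test gave an adjusted p of 3.02e-06 for OsC3H27, whose cultivar means spanned 1.29. OsC3H16 was lower in Nipponbare than in Bengal by 1.22 (adjusted p = 0.000295), OsC3H35 by 1.15 (9.61e-05) and OsC3H32 by 1.04 (2.21e-05). OsC3H9 had 7.89 and 8.00 in Nipponbare, 7.41 and 7.32 in Estrela A and 6.83 and 6.98 in Bengal, and among the 27 called members it was one of the 3 that were highest in Nipponbare, with OsC3H40 and OsC3H54. OsC3H54 had 9.99 and 10.03 in Nipponbare, 9.16 and 8.78 in Estrela A and 9.01 and 9.12 in Bengal (F-test adjusted p = 0.000897).

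LIC was lower in Nipponbare than in Bengal by 0.89 (adjusted p = 0.000464), and OsC3H49 by 0.89 (5.86e-05). OsC3H5 was lower in Nipponbare than in Bengal by 0.85 (adjusted p = 0.000127) and lower in Estrela A than in Bengal by 0.58 (0.00406). The makorin member OsC3H41 was lower in Estrela A than in Bengal by 0.35 (adjusted p = 0.0258). U2AF35A was not called among the cultivars, with 9.58 and 9.73 in Nipponbare, 9.51 and 9.15 in Estrela A and 9.59 and 9.47 in Bengal.

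Second probe sets gave a check on the members that had them. Of the 20 other probe sets of these genes, 13 had a mean at or above the median of all probe sets. In the unstable mutant against Nipponbare, 5 of the 13 belonged to a gene whose brightest probe set was called, and all 5 had the same sign and were called too. The 5 are not 5 genes, since both other probe sets of OsC3H35 are among them. OsC3H35 gave 1.16 by its brightest probe set and 0.83 and 0.46 by the others (adjusted p = 0.00327 and 0.0492). OsC3H12 gave 0.59 and, by its other bright probe set, 0.56 (adjusted p = 0.00255). Over all 13, called or not, 10 had the sign of the brightest probe set. For the unstable transgenic line against Nipponbare 8 of the 13 did, and between the unstable lines 9. Against the unstable transgenic line the same 2 probe sets of OsC3H12 gave 0.81 and 0.22, and the second did not pass (adjusted p = 0.163).

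OsC3H2, OsC3H8, OsC3H17 and OsC3H53 had probe sets that read the groups differently. For OsDOS the brightest probe set averaged 12.02 in the stable transgenic line, 12.21 in Bengal, 12.37 in Estrela A and 11.84 in Nipponbare. The other averaged 6.84 in the stable transgenic line, 7.01 in Bengal, 11.66 in Estrela A and 10.90 in Nipponbare, so only the second set the Bengal material apart. For OsC3H8 the brightest probe set differed by 0.32 between the unstable mutant and Nipponbare, and the other by 1.75 (adjusted p = 4.63e-05), with means of 9.22 in the unstable mutant and 7.47 in Nipponbare. For OsC3H17 the brightest probe set differed by 0.05 between the unstable mutant and Nipponbare and did not pass (adjusted p = 0.755), while the other rose by 0.67 (adjusted p = 0.00252), so the gene counts as not called by the rule of the brightest probe set. OsC3H53 differed between the unstable mutant and the unstable transgenic line by 0.58 on another probe set (adjusted p = 0.00448), against an adjusted p of 0.984 on its brightest. OsC3H40 had 1 probe set, so its level has no second reading. Whether the probes match the transcripts of each cultivar equally was not tested.

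**Figure D4:**
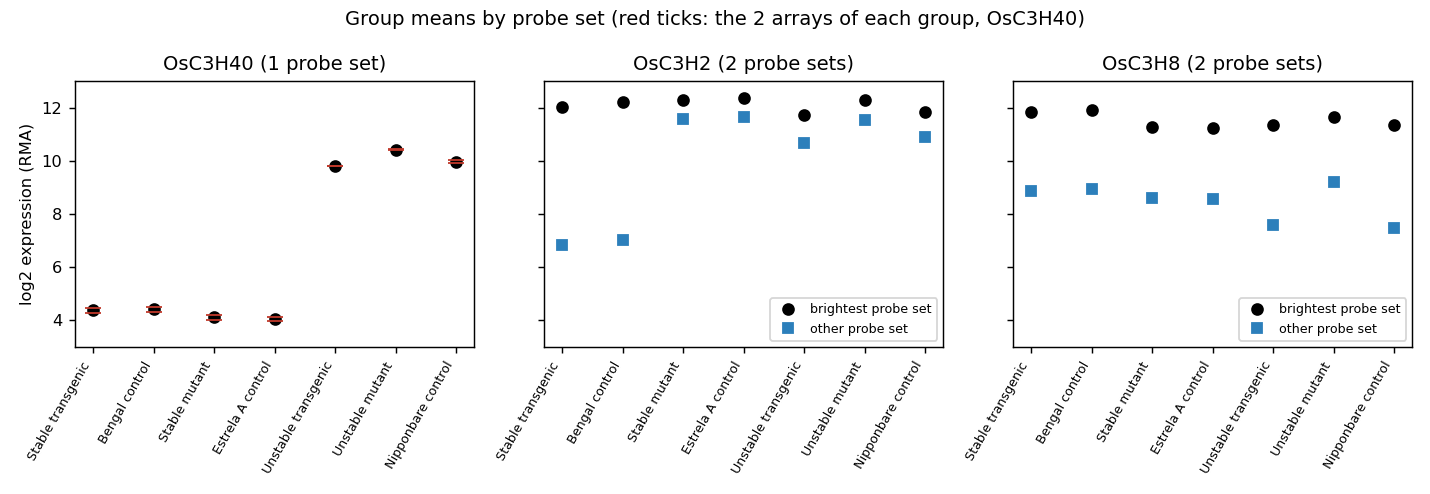
Group means (log2 expression on the vertical axis) by probe set for OsC3H40, OsC3H2 and OsC3H8. The red ticks are the 2 arrays of each group for OsC3H40. The other probe set of OsC3H2 reads 6.84 and 7.01 in the stable transgenic line and Bengal while its brightest reads 12.02 and 12.21.

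Companion genes, picked by name, were read from lists of their own. Only 2 genes of mRNA turnover were found by name in the reference gene table, the poly(A)-binding protein gene OsPAB1 and the exosome subunit gene RRP46, and both were on the array. In the unstable mutant against Nipponbare both fell, OsPAB1 by 0.33 (adjusted p = 0.0252) and RRP46 by 0.55 (adjusted p = 0.00615), and neither was called in the other 3 lines. As 18.9% of all genes fell there, 2 genes say little about mRNA turnover. Of 23 zinc finger genes of other classes, picked by name (SAP, LOL, LSD1 and DOF genes), 7 rose and 2 fell in the unstable mutant, with a median of 0.20. These 9 are 39.1% of the list, near the 38% of all genes. By direction, 30.4% of the list and 19.1% of all genes rose, while 8.7% of the list and 18.9% of all genes fell. DOF4 rose by 0.67 (adjusted p = 0.00438), OsSAP2 by 0.83 (0.0142) and OsSAP15 by 0.62 (0.00295), and OsSAP9 fell by 0.51 (0.00268). In the unstable transgenic line 2 of the 23 rose, OsSAP11 by 1.39 (adjusted p = 0.0028) and ISAP1 by 0.62 (adjusted p = 0.0284), and those 2 are 8.7% of the list, near the 9.21% of all genes that rose. In both stable lines 0 of the 23 were called, and an unadjusted p under 0.05 was found for 2 of them in the transgenic and 0 in the mutant. Over all 17905 genes it was found for 1786 in the transgenic and 1573 in the mutant.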

How the data were processed

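The deposited values are log2 expression. Per the labels' design text, the authors imported the scans into Partek Genomics Suite with Robust Multichip Average: background correction, normalization across chips, log2 and median polish. Program versions are not given here. All 14 deposited columns were used as they stand. Of 57381 probe sets, 187 controls were left out. Through the array annotation and a reference gene table (assembly ASM3414082v1, names and neighbours only), 22436 of 57194 probe sets had 1 gene, 95 several and 34663 none.

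limma 3.58.1 (R 4.3.3) fitted 1 mean per group over all arrays (7 residual and 4.57 prior degrees of freedom), with Benjamini-Hochberg adjustment over all probe sets, two-sided. The code was tested on simulated data. Replicate 1 has a number in its title. Named genes were up to 10 called members per comparison with the largest differences (2 where none was called), OsC3H40, members with a published second name, and those with the widest range. Members, lists and tests were chosen with earlier results of these data known. The number of arrays limits the precision. Shoot, root and grain markers were summed as linear values. Alternatives are in the closing section.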

Additional observations from a re-analysis of the deposited data

Results flagged for a closer look

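A difference of line effects sets the unstable line's change against its own control minus the stable line's change against its own control, in log2 units, with limma's adjusted p over all probe sets. For the mutants it passed in 11 members. OsC3H35 differed by 1.25 and OsC3H9 by -1.06, and both passed with any 1 array left out, as did OsC3H32 with 0.81 (0.87 in the unstable mutant, 0.06 in the stable mutant). OsC3H16 differed by 1.10 (0.86 in the unstable mutant, -0.24 in the stable mutant) and LIC (OsC3H46) by 0.81 (0.64 in the unstable mutant, -0.17 in the stable mutant). OsC3H60 differed by 0.85 and OsC3H14 by 0.61 (0.61 in the unstable mutant, 0.01 in the stable mutant). For OsC3H49 the difference was 0.58 (0.74 in the unstable mutant, 0.16 in the stable mutant). OsC3H12 differed by 0.48 (0.59 in the unstable mutant, 0.12 in the stable mutant), with the highest adjusted p of the 11, 0.0418. Whether the call of OsC3H12 held with 1 array left out was not recorded. OsC3H3, whose probe set lies below the median of all probe sets, differed by 0.59 although neither line passed on its own (0.22 in the unstable mutant, -0.38 in the stable mutant). OsC3H54 differed by -0.93 (-0.27 in the unstable mutant, 0.66 in the stable mutant), again with neither line called.

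Most of these rested on single arrays of the mutants and their controls. OsC3H60 lost its call without stable mutant replicate 1 (adjusted p = 0.0548) or Estrela A replicate 1 (0.0546). OsC3H16 lost it without Nipponbare replicate 1 (0.0503), stable mutant replicate 2 (0.0532), Estrela A replicate 1 (0.0621) or unstable mutant replicate 1 (0.0561). LIC lost it without either stable mutant array (0.0504 and 0.0697), Estrela A replicate 1 (0.0874) or unstable mutant replicate 1 (0.0769). OsC3H3, OsC3H14 and OsC3H49 each lost it without Nipponbare replicate 1, either stable mutant array or Estrela A replicate 1, OsC3H14 also without Estrela A replicate 2, OsC3H14 and OsC3H49 also without unstable mutant replicate 1 and OsC3H3 also without unstable mutant replicate 2, with adjusted p up to 0.0739, 0.0679 and 0.101 for OsC3H3, OsC3H14 and OsC3H49. OsC3H54 kept it in 1 of 8 such fits, the one without Estrela A replicate 1, and its adjusted p reached 0.108.

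For the transgenic lines OsC3H54 differed by -1.38 and OsC3H5 by 0.97. The adjusted p was 0.0507 for OsC3H5 without Bengal replicate 2 and 0.0552 for OsC3H54 without the same array, and OsC3H54 also missed the threshold without Bengal replicate 1 (0.0659) or stable transgenic replicate 2 (0.0661).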

How the results depend on the processing

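Each count of calls was recomputed under 8 other settings and with each array left out, where the lone array left in its group is assumed to vary like the others. No called difference of a named gene changed sign. With only the arrays of the comparison fitted, calls were 0 of 5 in the unstable transgenic line, 10 of 21 in the unstable mutant and 1 of 2 between the transgenic lines' effects. Asking also for a 2-fold difference left 2 calls in the unstable transgenic line, 3 in the unstable mutant, 5 between the unstable lines, 8 among cultivars, 3 between the mutants' effects and 1 between the transgenic lines' effects. Over all 17905 genes the same rule left, in that order, 614, 1558, 2605, 2376, 1252 and 403 calls. With 1 array left out, calls ranged from 3 to 4 in the unstable transgenic line, 10 to 19 in the unstable mutant, 18 to 24 between the unstable lines, 21 to 25 among cultivars, 4 to 15 between the mutants' effects, 0 to 3 between the transgenic lines' effects and stayed at 0 in both stable lines. The count for the mutants' effects was 4 without either stable mutant array or Estrela A replicate 1, and 5 without Nipponbare replicate 1 or unstable mutant replicate 1. Cyclic loess gave 20 calls in the unstable mutant (17 higher, 3 lower) and 22 among cultivars. OsC3H12 lost its call in the unstable mutant with the mean over its probe sets (0.22, adjusted p = 0.115). That mean takes in probe sets averaging 4.39 and 4.40 over all arrays, below the median of 5.88. Numbers 1 and 2 pair nothing in the labels, and deviations of same-numbered arrays correlated at -0.21 to 0.12 over 21 group pairs. With the replicate block the calls were 5, 21, 27 and 26 in the unstable transgenic line, the unstable mutant, between the unstable lines and among cultivars, and Ehd4 in the unstable transgenic line missed the threshold (adjusted p = 0.0525). The cause of these shifts was not tested. Apart from the 2-fold rule, the counts in this section stand without the share of all genes, so they are no result about the family. Signal near background limits OsC3H1, OsC3H3, OsC3H10, OsC3H34, OsC3H43 and OsC3H47, whose probe sets lie below the median of 5.88.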
